A study of Mus musculus with 25 samples.

Results

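The genes described here were 40 collagen and extracellular matrix genes, chosen by name as a list of structural matrix proteins and the enzymes that mature or degrade them. All 40 were found among the 8829 gene symbols of the deposited table. They were read in the gastrocnemius, the large calf muscle, of 25 male SAMP8 mice, an inbred line with accelerated senescence. Control mice (n = 11) received the vehicle, corn oil, and thymol mice (n = 14) received thymol, a phenolic terpenoid of thyme and oregano, at a daily dose of 20 mg/kg. Both arms were of the same strain, started at 8 months of age and were treated for 3 months by gavage, and each mouse gave 1 library. Libraries were made with QuantSeq, a method that sequences only the tail end of each messenger RNA, so reads do not grow in number with transcript length. Other differences between genes in how well their ends are read were not measured. Levels are given as log2 CPM, the logarithm of counts scaled to a common library size by the authors.

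The extracellular matrix of muscle has an outer and an inner part. Fibroblasts of the connective tissue sheaths and tendons spin fibrils of type I, III and V collagen, which carry force between fibres and to the tendon. Each muscle fibre and each capillary is wrapped in a basement membrane, a sheet in which type IV collagen and laminin networks are joined by nidogens and by heparan sulfate proteoglycans. Collagen VI sits between both, small proteoglycans such as decorin coat the fibrils, and elastin with fibrillin forms elastic fibres, in muscle mostly in vessel walls and fascia. Thickening of the fibrillar part is a known feature of ageing muscle.

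The members were sorted into 7 classes by textbook function, and the 2 that the comparison turns on are the 6 fibrillar collagens and the 14 basement membrane genes. Reads per mouse ranged from 4463818 to 9463418 with a median of 7503259, and matrix genes took from 0.235% to 0.590% of them, with a median of 0.308%. Every member reached 30 reads in at least 6 mice, and none was at 0 reads in any mouse. On the first 3 principal components of all genes (11.6%, 9.12% and 6.74% of the variance), the libraries farthest out were Control 18, Thymol 20 and Control 19, named by group and by the mouse number in the label. Control 18 was the highest mouse and Control 19 the lowest in Col1a1, and the main values on spread and co-variation are given without them as well. Control 18, with 6007289 reads, also had the highest share of reads on mitochondrial genome genes, 33.9%. That share was 22.1% in Control 19 and 22.9% in Thymol 21, the second highest mouse in Col1a1. Its relation to the members was not tested. The labelled tissue was checked against its markers: all 10 myofibre markers were in the table, and their sum ranged from 151680 to 204138 CPM over the 25 mice.

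Small proteoglycans and fibrillar collagens held the largest shares of the reads on matrix genes. Of the reads on members, the 4 small leucine-rich proteoglycans took 27.7%, the 6 fibrillar collagens 21.6%, the 5 remodelling and maturation genes 18.4%, the 4 matricellular genes 14.7% and the 14 basement membrane genes 12.2%. Collagen VI took 2.94%, and the 4 genes of elastic fibres and adhesive glycoproteins took 2.41%. Dcn, which encodes decorin, was the most abundant member with a median of 717 CPM, and stood at the 99.1 percentile of all genes by mean level. Col1a2 (337 CPM), the secreted collagen-binding protein Sparc (294 CPM) and the metalloproteinase inhibitors Timp2 (282 CPM) and Timp3 (229 CPM) came next. The least abundant were Nid2 (5.21 CPM), Col18a1 (4.97 CPM) and Postn (4.16 CPM), which encode nidogen-2, collagen XVIII and periostin. Within type I collagen, whose trimer joins 2 alpha-1 chains to 1 alpha-2 chain, more reads fell on the alpha-2 chain. Different genes need not give reads at the same rate, so this does not measure the ratio of transcripts. The log2 ratio of Col1a1 to Col1a2 averaged -1.39 ± 0.33 (SD, n = 11) under control and -1.43 ± 0.21 (SD, n = 14) under thymol, and it was below 0 in every mouse, with -1.03 as its highest value.

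The 2 classes differed in how far mice of the same group lay from each other. The spread is given as the SD of log2 CPM between mice after the group means were removed. Its median was 0.67 over the fibrillar collagens, 0.32 over the basement membrane genes and 0.275 over all genes. Col1a1, the alpha-1 chain of type I collagen, had an SD of 0.88, which put it at the 99.0 percentile of all genes and at the 99.4 percentile of the 504 genes within 0.5 log2 units of its level. Its level was 4.94 at the lowest, 7.33 at the median and 9.14 at the highest in control mice, and 5.76, 6.97 and 8.59 in thymol mice. The thymol mice lay wholly inside the range of the control mice, and the full range of 18.4-fold ran from 234 reads in Control 19 to 3121 reads in Control 18. Counting error alone would give an SD of 0.05 at these reads. The measure is one of bulk tissue, in which fewer cells of a type and less RNA per cell cannot be told apart.

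The other chains of the same fibrils followed. Col3a1, the type III chain, had an SD of 0.79 and a range of 15.6-fold, and Col1a2 had an SD of 0.72 and a range of 9.33-fold. Col5a2 and Col5a1, chains of the type V collagen that nucleates fibrils, had SDs of 0.63 and 0.54. In all 5 genes the highest mouse was Control 18 and the lowest Control 19. Col5a3, the third type V chain, had the smallest SD of the class at 0.41, with Control 31 highest and Thymol 24 lowest. Without Control 18 the median SD of the fibrillar collagens was 0.61, without Control 19 it was 0.57, and without all 3 outlying libraries it was 0.46, against 0.31 for the basement membrane and 0.27 for all genes in the last case. Col1a1 alone kept an SD of 0.67 without the 3.

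Basement membrane genes had the smaller SDs, and the spread differed among them. Among genes within 0.5 log2 units of their own level, the median percentile was 97.8 for the fibrillar and 75.4 for the basement membrane genes, with Lamb2 lowest at 22.7 and Col4a1, Hspg2 and Col15a1 at 88.8, 90.3 and 93.9. Lamb2, the laminin beta-2 chain, was the steadiest member, with an SD of 0.14, at the 5.99 percentile of all genes whatever their level. Its level was 6.03 at the lowest, 6.31 at the median and 6.45 at the highest in control mice, and 6.14, 6.31 and 6.58 in thymol mice. The whole range over 25 mice was 1.47-fold, and the medians of the groups were level. Lamc1, the gamma chain shared by most laminins, Nid1 and Col4a2 followed with SDs of 0.21, 0.22 and 0.25. Col4a1, the alpha-1 chain of type IV collagen, had an SD of 0.30 and a range of 2.35-fold, from 4.93 in Thymol 9 to 6.16 in Control 14. The largest SDs of the class were those of Col18a1 (0.53), Nid2 (0.48) and Col15a1 (0.47). For Col18a1 and Nid2, with medians of 37 and 39 reads, counting alone would give 0.26 and 0.25.

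**Figure D1:**
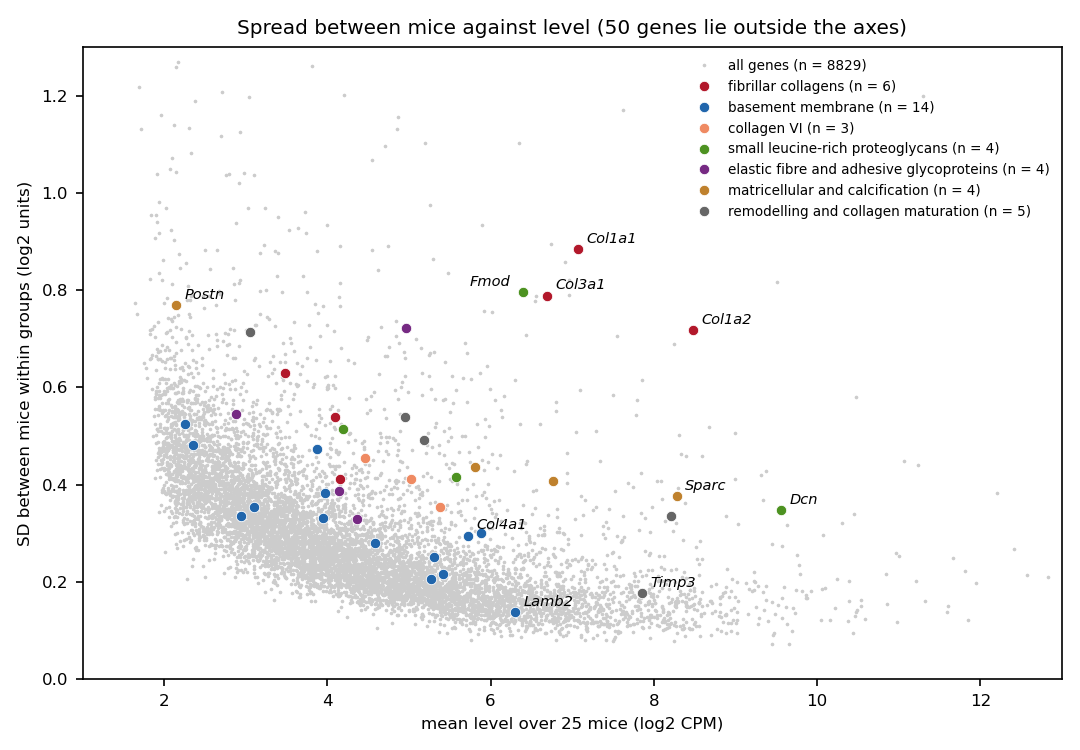
SD of each gene between mice within groups (log2 units, vertical axis) against its mean level (log2 CPM, horizontal axis), with all genes in grey and the 40 matrix genes coloured by class. Fibrillar collagens lie above the cloud at their level, with Col1a1 at an SD of 0.88, while basement membrane genes run from Col18a1 at 0.53 down to Lamb2 at 0.14.

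Outside these classes, the largest spreads were those of Fmod (SD 0.80), Postn (0.77), Fn1 (0.72) and Lox (0.71), which encode fibromodulin, periostin, fibronectin and the enzyme that crosslinks collagen and elastin. Fmod, a proteoglycan abundant in tendon, had the highest mouse in Thymol 21 and the lowest in Thymol 20. Its level was 5.97 at the lowest, 6.20 at the median and 7.47 at the highest in control mice, and 4.82, 6.24 and 7.94 in thymol mice. The control mice all lay inside the thymol range, and Fmod was the member with the lowest ratio of control to thymol SD, 0.59. Timp3, a matrix-bound inhibitor of metalloproteinases, was the steadiest outside the basement membrane, with an SD of 0.18 and a range of 1.57-fold.

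Whether treatment changed the spread was tested on the absolute distance of each mouse from its group median. The SD was larger in control than in thymol mice for 27 of the 40 members and for 6 of 6 fibrillar collagens, against 57.8% of all genes. These counts moved with Control 18 and Control 19: they were 19 and 6 without the first (52.6% of all genes), 21 and 5 without the second (54.4%), and 11 and 1 without both (48.1%). For Col1a1 the SD was 1.09 in control and 0.68 in thymol mice, with an unadjusted p of 0.189 (limma, adjusted p = 0.9996), and without both of these mice the control SD was 0.62, below that of the thymol mice. No member passed at the adjusted threshold of 0.05 (limma, Benjamini-Hochberg over all genes), and the share of all genes that passed was 0%. An unadjusted p under 0.05 was reached by 1 member, against 3.06% of all genes: Hspg2, which encodes the basement membrane proteoglycan perlecan, with an SD of 0.39 in control and 0.20 in thymol mice (unadjusted p = 0.0468). For Hspg2 that p rose above 0.05 on leaving out any of 14 of the 25 mice. A p above the threshold does not show that the spreads were alike.

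The fibrillar genes rose and fell together from mouse to mouse. The group means were removed, Pearson r was taken over the 25 mice for 30 pairs of members with a known relation, and each was tested with 100000 two-sided permutations and adjusted over the 30 pairs. Of these, 17 passed at an adjusted p under 0.05, all with a positive r. Col1a1 and Col1a2, the chains of type I collagen, had the closest relation (r = 0.97, rho = 0.95, adjusted permutation p = 4.29e-05). It held within control mice (r = 0.97) and within thymol mice (r = 0.96), and was 0.95 without Control 18 and Control 19, the mice farthest from the median in Col1a1. Col1a1 with Col3a1 gave r = 0.88 and rho = 0.80, and 0.76 without the same mice. The type V chains Col5a1 and Col5a2 gave 0.79 and rho = 0.77, and 0.65 without those mice. The 3 chains of collagen VI, which assemble into 1 heterotrimer, gave r from 0.76 to 0.79 in pairs, and rho from 0.57 to 0.70. All of these passed in both groups taken separately.

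Several genes whose proteins bind, mature or degrade collagen tracked Col1a1 as well. Timp3 (r = 0.24), Fmod (0.39) and Thbs4 (0.40) were less close to it. The r of Col1a1 was 0.89 with Sparc (rho = 0.82), 0.75 with Lox (rho = 0.82) and 0.73 with Dcn (rho = 0.73). These were 0.85, 0.79 and 0.74 without the 2 outlying mice. Mmp2, a gelatinase, and Timp2, which both inhibits it and takes part in its activation, gave r = 0.80 and rho = 0.78 with each other, and 0.74 without the 2 mice farthest out in Mmp2. Serpinh1, the collagen chaperone HSP47 of the endoplasmic reticulum, was less close, with r = 0.47 with Col1a1 (rho = 0.48, adjusted permutation p = 0.0348) and r = 0.55 with Col4a1 (rho = 0.63, adjusted permutation p = 0.00801). Without the 2 mice farthest out the first had an r of 0.46, hardly moved, and an adjusted permutation p of 0.0556, while the second dropped to an r of 0.42 with an adjusted permutation p of 0.0774. Dcn with the related proteoglycan Lum fell likewise, from 0.67 (rho = 0.57) to 0.45, and the adjusted permutation p became 0.0589.

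Basement membrane genes did not move as a block. Their 91 pairs had a median r of 0.13, against 0.83 over the 15 pairs of fibrillar collagens, 0.76 over the 3 pairs of collagen VI, 0.28 over all 780 pairs of members, and 0.27 over the 84 pairs that cross fibrillar and basement membrane genes. Without Control 18 the medians were 0.77 for fibrillar, 0.16 for basement membrane and 0.36 for crossed pairs. Within control mice they were 0.89, 0.18 and 0.22, and within thymol mice 0.69, 0.14 and 0.31. An r above 0.5 was found for 208 of the 780 pairs of members (26.7%), 10 of the 15 fibrillar pairs (66.7%) and 8 of the 91 basement membrane pairs (8.79%). Over all pairs of genes in the table that share was 1.22%, and the median r was -0.0011. The basement membrane pairs above 0.5 included Col4a2 with Hspg2 (0.65), Col15a1 with Lamc1 (0.62), Col4a2 with Lama4 (0.60) and Lama4 with Hspg2 (0.58). These values describe the same 25 mice and share libraries, so no p is attached to them. Counting alone would give SDs of 0.20 and 0.19 for Lama5 and Agrn, whose SDs were 0.33 and 0.35. For Hspg2 it would give 0.07 of 0.30, and for Col1a1 0.05 of 0.88. Such error can lower r, and its part in the contrast between the classes was not tested. None of the 6 fixed pairs of laminin chains passed over the 25 mice, although the chains assemble into the same trimers. Their r ran from -0.21 for Lama2 with Lamb1 (rho = -0.25, adjusted permutation p = 0.437) to 0.38 for Lama2 with Lamb2 (rho = 0.40, adjusted permutation p = 0.102). Within single groups, only Lamb2 with Lamc1 in control mice passed, with r = 0.68 (adjusted permutation p = 0.0434), against r = 0.06 in thymol mice (adjusted permutation p = 0.832). Nid1 with Nid2 gave -0.06 (rho = 0.11), and Nid1 with its binding partner Lamc1 gave 0.29 (rho = 0.14). Neither passed, with adjusted permutation p of 0.795 and 0.240. Lama4 with Lamb1, chains of the laminin of vessel walls, was not among the fixed pairs. It gave an r of 0.43 over the 25 mice, above those of the 6 over the same mice, with no test.

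**Figure D2:**
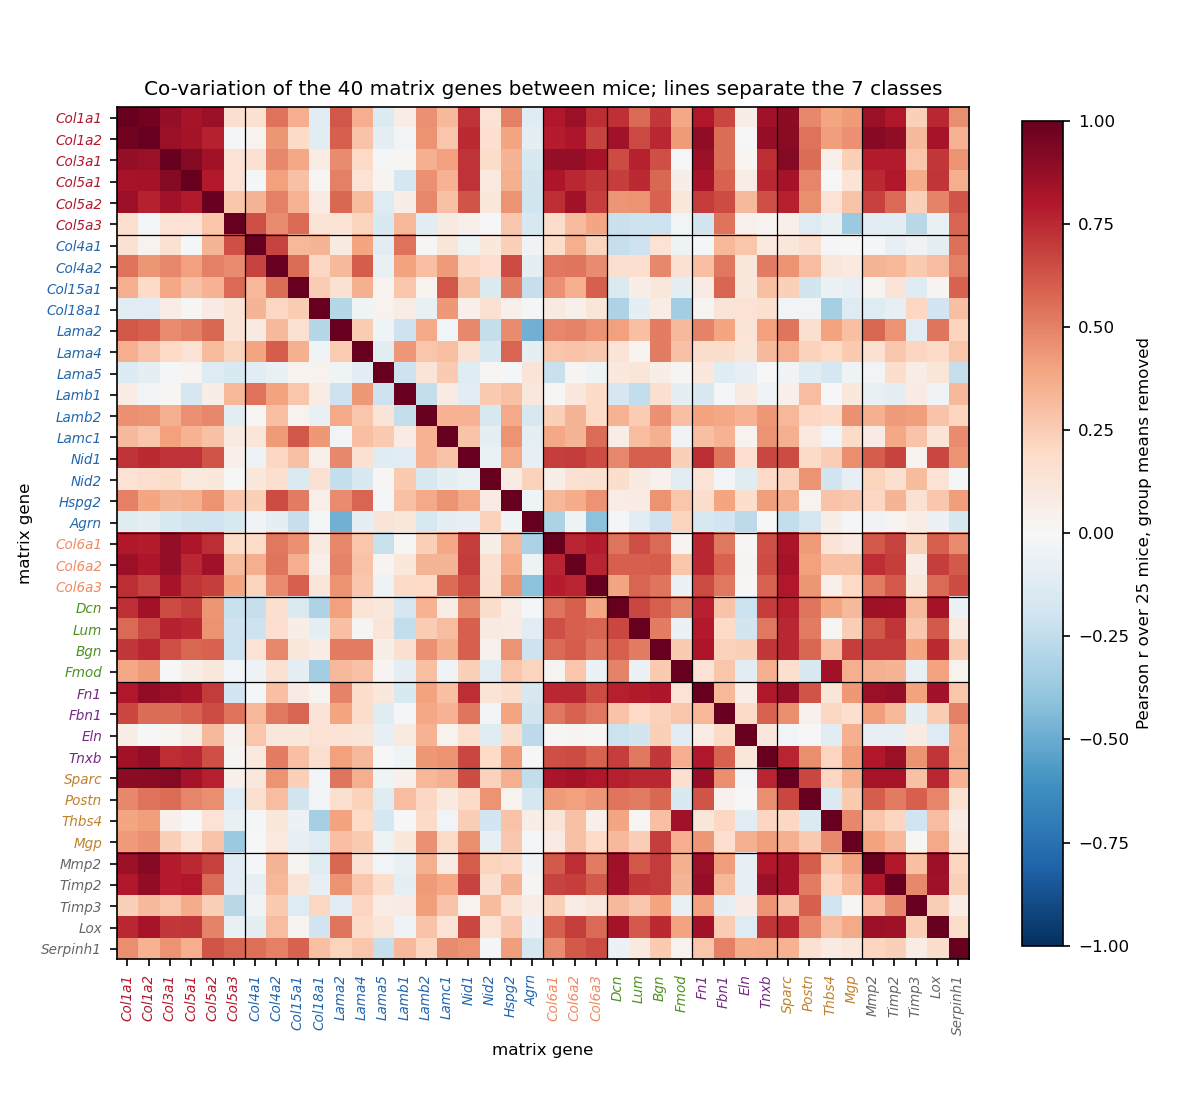
Pearson r between the 40 matrix genes over 25 mice with group means removed, from -1 (blue) to 1 (red), with genes on both axes ordered by class and lines between classes. The fibrillar and collagen VI blocks are deep red, with median r of 0.83 and 0.76, except for the row of Col5a3, whose r with the other fibrillar collagens lies between -0.01 and 0.28, and the basement membrane block is pale, with a median of 0.13.

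The chains of type IV collagen had the highest r of the 91 pairs within the basement membrane. Col4a1 and Col4a2 gave r = 0.68 and rho = 0.71 (adjusted permutation p = 0.000646), and r was 0.74 in control mice, 0.64 in thymol mice and 0.65 without Thymol 9 and Thymol 24, the mice lowest in Col4a1. The genes lie head to head on chromosome 8 and are read in opposite directions from start sites that RefSeq places 21 bases apart, so that their promoter windows, each from 250 bases before to 50 after the start, share 78 bases. The window of Col4a2 on GRCm38.p6, chr8:11312555-11312854, plus strand, is shown 5′ to 3′ because both genes of the pair start within it, and the capitals mark the bases that also lie in the window of Col4a1.
Col4a2 promoter: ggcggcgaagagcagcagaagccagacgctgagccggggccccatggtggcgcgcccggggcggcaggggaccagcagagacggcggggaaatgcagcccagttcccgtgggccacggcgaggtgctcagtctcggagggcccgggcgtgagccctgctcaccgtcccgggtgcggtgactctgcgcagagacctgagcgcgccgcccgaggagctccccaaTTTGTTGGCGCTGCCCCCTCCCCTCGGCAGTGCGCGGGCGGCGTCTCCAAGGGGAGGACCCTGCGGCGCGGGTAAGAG
In GENCODE M21 the 2 genes overlap on opposite strands, at their 5′ ends only, and reads from the 3′ ends fall far from that stretch. The sequence CCAAT, searched on both strands, was found in the windows of Col4a1 and Col4a2, and in those of 10 of the 28 members that have a window, against 42.2% of all 7049 genes of the table with one. The sequence TATAAA was found in 2 of the 28, Col3a1 and Postn, against 9.04% of all genes.

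Between the classes, the fixed pairs of Col1a1 and of Col3a1 with Col4a1 did not pass. Col1a1 with Col4a1 gave r = 0.16 and rho = 0.22 (adjusted permutation p = 0.571), with 0.0013 in control and 0.34 in thymol mice, and Col3a1 with Col4a1 gave 0.15 (rho = 0.21). The r of Col1a1 with Col4a1 was 0.35 without Control 18 and Control 19. Col4a2, which was in no fixed pair with the fibrils, was closer to them, with r of 0.55, 0.44 and 0.48 for Col1a1, Col1a2 and Col3a1 (rho of 0.56, 0.48 and 0.53) and of 0.71, 0.55 and 0.67 without both mice. Its adjusted permutation p with Col1a1, over 8828 genes, was 0.137. Control 18 had the highest Col1a1 level of all mice, 9.14, and the sixth lowest Col4a1 level, 5.47. The log2 ratio of Col1a1 to Col4a1 ran from -0.81 to 3.67 in control mice and from -0.05 to 2.77 in thymol mice. Some basement membrane genes did side with the fibrils. Lama2, the alpha-2 chain of the laminin of muscle fibres, gave r = 0.62 with Col1a1 (rho = 0.62, adjusted permutation p = 0.00134) and 0.09 with Col4a1 (rho = 0.08), and Nid1 was most like Col1a2 among all members, with r = 0.75. At the other end, Agrn, the proteoglycan agrin of the neuromuscular junction, and Lama5 had mean r of -0.13 and -0.08 with Col1a1, Col1a2 and Col3a1.

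Col5a3 was the reverse case among the fibrillar collagens. It gave a mean r of 0.10 with Col1a1, Col1a2 and Col3a1, whereas the mean r of each of the 5 others with those genes, itself left out, lay between 0.82 and 0.92. Its closest member was Col4a1, with r = 0.64, which ranked 14 among the 8828 genes set against Col4a1 (adjusted permutation p = 0.298). Eln, which encodes elastin, kept to itself. Its largest r with any member was 0.37, with Serpinh1, and it gave 0.19 with its fibre partner Fbn1 (rho = 0.18, adjusted permutation p = 0.462), a pair whose r was 0.64 in control and -0.26 in thymol mice. Fmod and Thbs4, both abundant in tendon, paired with each other at r = 0.84 (rho = 0.75, adjusted permutation p = 4.29e-05) and at 0.83 without Thymol 21 and Thymol 26, and less with the type I chains, with 0.39 and 0.40 for Col1a1.

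**Figure D3:**
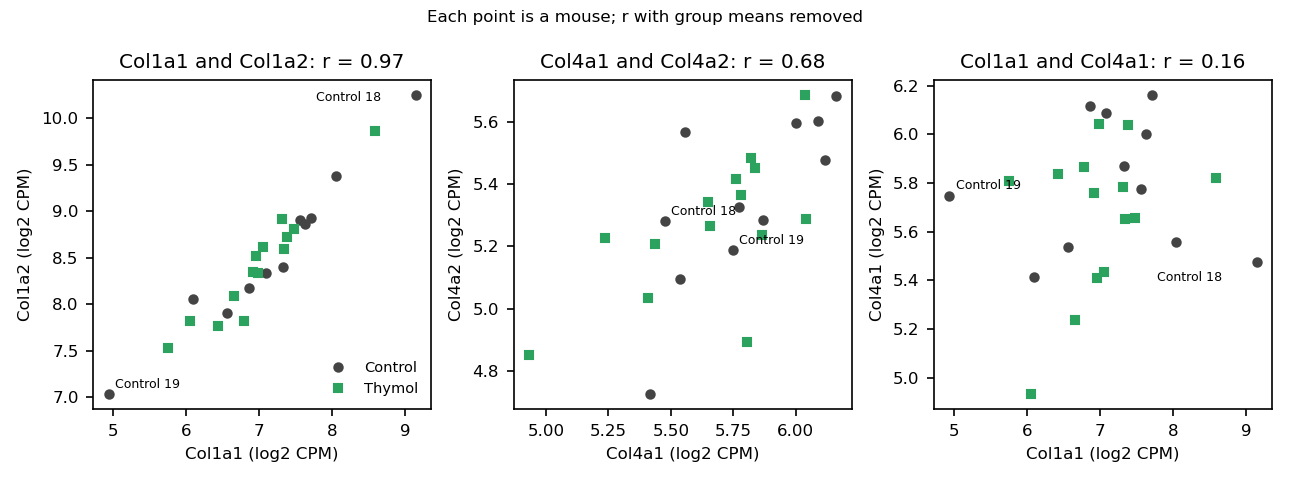
Levels of 3 pairs of collagen genes in log2 CPM on both axes, with each point a mouse, circles for control (n = 11) and squares for thymol (n = 14). Col1a1 and Col1a2 lie on a line (r = 0.97), Col4a1 and Col4a2 are looser (r = 0.68), and Col1a1 and Col4a1 show no line (r = 0.16), with Control 18 far right and low.

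Set against every gene, Col1a1 had many companions and Col4a1 none past the threshold. Of 8828 other genes, 142 (1.61%) varied with Col1a1 at an adjusted permutation p under 0.05, and 121 of them (1.37%) in the same direction. These 121 held 18 of the 39 other members: Col1a2, Col3a1, Col5a1, Col5a2, the 3 collagen VI chains, Dcn, Bgn, Fn1, Fbn1, Tnxb, Sparc, Mmp2, Timp2, Lox and, of the basement membrane, Lama2 and Nid1. No member varied against Col1a1 at that threshold. The count depended on single mice: it was 61 without Control 18, 89 without Thymol 21 and 294 without Control 19, and from 103 to 156 without any other mouse. Without both Control 18 and Control 19 it was 100, with 90 in the same direction and 14 members among them, which no longer included Lama2, Nid1, Fbn1, Col6a1 or Col6a3 and now included Col4a2. The 5 closest genes outside the list were Pcolce, an enhancer of procollagen C-proteinase (r = 0.89, rho = 0.83), Fndc1 (0.88, rho = 0.84), the secreted glycoprotein gene Fstl1 (0.87, rho = 0.87), Adamts2, which removes the procollagen N-propeptide (0.83, rho = 0.71), and Ecm1 (0.82, rho = 0.83). Each had an adjusted permutation p of 0.00420, and without Control 18 and Control 19 their r lay between 0.72 and 0.81. For Col4a1, 0% of 8828 genes passed at the adjusted threshold, and 548 had an unadjusted permutation p under 0.05. That count stayed at 0 with each mouse left out and was 2 without both Control 18 and Control 19, with no member among them. Among the highest were Cd300lg, an endothelial surface receptor (r = 0.73, rho = 0.57), Chordc1 (0.69, rho = 0.77), the poly(A) polymerase gene Papola (0.67, rho = 0.71) and Mmachc (0.67, rho = 0.63), all with an adjusted permutation p of 0.277.

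Markers of some cell types moved with these genes, and their part in the co-variation was not tested. The summed level of 11 of 12 fibroblast markers ran from 910 to 1712 CPM in control and from 855 to 1681 CPM in thymol mice, and had r = 0.69 with Col1a1 and -0.08 with Col4a1. The sum of 9 of 10 macrophage markers ran from 96.9 to 505 CPM in control and from 106 to 327 CPM in thymol mice, with r = 0.63 and -0.02. Control 18 held the highest value of both. The r of these sums with Col1a1 was 0.59 and 0.49 without Control 18, 0.82 and 0.77 without Control 19, and 0.75 and 0.67 without both. The sum of 9 of 10 mural cell markers (441 to 786 and 439 to 716 CPM) had r = 0.56 with Col4a1 and -0.06 with Col1a1, and that of 12 of 12 endothelial markers (310 to 470 and 307 to 416 CPM) had r = 0.42 and 0.07. The sum of 6 of 7 tenocyte markers, 41.8 to 200 CPM in control and 22.4 to 272 CPM in thymol mice, had r = 0.95 with Fmod and 0.55 with Col1a1. The adipocyte sum (9 of 10 markers) ran from 465 to 2833 CPM in control and from 502 to 2567 CPM in thymol mice, with r = -0.10 and 0.05. Control 19, lowest in 5 fibrillar collagens, held the highest value, 2833 CPM, with 1097 CPM for the fibroblast markers, the median of the control mice. Without Control 19 the r of the adipocyte sum with Col1a1 was 0.31, without Control 18 it was -0.22, and without both 0.20. Without Control 18 the mural sum had r = 0.19 with Col1a1 and 0.53 with Col4a1. The myofibre sum had r = -0.32 with Col1a1 and -0.16 with Col4a1, and the Schwann cell sum (4 of 8 markers) had -0.05 and -0.20. Only 1 of 5 satellite cell markers was in the table, with r = 0.31 and 0.27. All these r are descriptions over mice that share the libraries with the members, and carry no p.

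Sequence features that the list did not use were compared over the members' 3′ untranslated regions. The miR-29 microRNAs are known to bind collagen transcripts through their seed, bases 2 to 8 of the mature strand, and they are shown here because the seed is the same in all 3, in capitals, with sequences from RefSeq on GRCm38.p6. No microRNA was measured in these libraries.
mmu-miR-29a-3p: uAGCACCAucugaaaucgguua
mmu-miR-29b-3p: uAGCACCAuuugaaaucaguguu
mmu-miR-29c-3p: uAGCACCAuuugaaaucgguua
The complement of the seed, TGGTGCT, searched on the transcript strand only, occurred at least once in 16 of the 40 members (40%) and in 14.8% of the 8514 genes of the table with an annotated region. The members' regions were the shorter ones, with a median of 761 bases against 1057.5, and held 0.674 matches per kilobase against 0.115. By class, 5 of 6 fibrillar collagens held a match (all but Col1a2), 2 of 3 collagen VI genes, 5 of 14 basement membrane genes (Col4a1, Col4a2, Col15a1, Lamc1 and Agrn), and none of the small proteoglycans or matricellular genes. Col5a1 held 4, and Col5a3, Lox and Eln held 3 each. A match is a run of letters and not a measured site. The matches of the type I, III and IV collagens and of elastin on GRCm38, each with the complement in capitals, are these.
Col1a1, chr11:94952527-94952548, plus strand: gaaggaatttcTGGTGCTatag
Col3a1, chr1:45348971-45348992, plus strand: aaatgtctcaaTGGTGCTataa
Col4a1, chr8:11199758-11199779, minus strand: ccgtcacaacaTGGTGCTactc
Col4a2, chr8:11448348-11448369, plus strand: gaaggccacgtTGGTGCTtatc
Col4a2, chr8:11448519-11448540, plus strand: cacacccagctTGGTGCTtact
Eln, chr5:134703733-134703754, minus strand: ctcatcaacgtTGGTGCTactg
Eln, chr5:134703486-134703507, minus strand: ccaagggaaatTGGTGCTacat
Eln, chr5:134703473-134703494, minus strand: gtgctacatgtTGGTGCTtctt

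Thymol against control was compared next, and no matrix gene changed at an adjusted p under 0.05. The test was limma on the deposited values with adjustment over all 8829 genes (Benjamini-Hochberg), by which 0% of genes were called, and voom on the recovered reads also called 0. The members' adjusted p was 0.9999 throughout. An unadjusted p under 0.05 was reached by 2 of 40 members, against 3.53% of all genes, and both were lower with thymol, as were 1.7% of all genes. They were Eln and Col5a3. By direction alone, 31 of the 40 log2 fold changes lay below 0 and 9 above, with a median of -0.08 against -0.0014 over all genes. That tilt moved with Control 18: without it 23 were below and 17 above, the median was -0.01, and the median of the fibrillar collagens went from -0.15 to 0.04.

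Eln had the smallest p of the members. Its level was 3.81 at the lowest, 4.54 at the median and 4.80 at the highest in control mice, and 3.06, 3.90 and 4.58 in thymol mice. The groups overlapped from 3.81 to 4.58, and 5 of 14 treated mice lay below every control mouse. Of the treated mice, 12 of 14 were under the control median, and Thymol 21, the mouse with the second highest Col1a1, was the lowest. The means were 4.39 ± 0.34 (SD, n = 11) and 3.94 ± 0.42 (SD, n = 14), a log2 fold change of -0.45 (SE 0.15, 95% interval -0.74 to -0.15, limma, unadjusted p = 0.00448, adjusted p = 0.9999). It kept an unadjusted p under 0.05 under every alternative that was run, with a log2 fold change from -0.50 to -0.38. The gene, on chromosome 5 of GRCm38 from 134702593 to 134747323, minus strand, is overlapped on the other strand by the antisense gene Gm30003, and the strand setting of the counting is not given in the sources used here. The summed markers of mural cells, which make elastic fibres in vessel walls, had r = 0.40 with Eln and medians of 602 CPM in control and 567 CPM in thymol mice, and their part in the difference was not tested.

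Col5a3 was at 3.67, 4.14 and 5.01 (lowest, median, highest) in control mice and at 3.32, 3.90 and 4.56 in thymol mice. Most mice of both groups lay in the shared range, with 9 of 14 treated mice under the control median. The means were 4.34 ± 0.42 (SD, n = 11) and 4.002 ± 0.401 (SD, n = 14), a log2 fold change of -0.34 (SE 0.15, 95% interval -0.65 to -0.03, limma, unadjusted p = 0.0341). Leaving out 1 mouse took that p above 0.05 in 9 of 25 cases, with Control 1, 14, 15, 27 and 31 and Thymol 3, 6, 24 and 28, and the highest was 0.0806. The 4 Schwann cell markers in the table, of 8 listed, summed to 75.2 to 250 CPM in control and 68.3 to 173 CPM in thymol mice. Their sum had r = -0.55 with Col5a3, the largest in size of the marker sums. Its medians were 138 CPM in control and 97.6 CPM in thymol mice, so it was lower with thymol, as Col5a3 was, although the r was negative. The part of these markers in the difference was not tested. The misc_RNA gene Gm26274 lies within Col5a3 on the other strand.

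The 5 remaining fibrillar collagens had small differences with wide intervals. Col1a1 was at 7.18 ± 1.09 (SD, n = 11) and 6.98 ± 0.68 (SD, n = 14), a log2 fold change of -0.20 with a 95% interval from -0.84 to 0.44 (limma, unadjusted p = 0.531). Without Control 18 the same difference was -0.0022, and without Control 19 it was -0.42. Col1a2, Col3a1, Col5a1 and Col5a2 differed by -0.16, -0.14, -0.06 and -0.05, and each turned above 0 without Control 18. The intervals of Col1a1, Col1a2 and Col3a1 thus leave room for a fall or a rise of over 0.3 log2 units.

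Basement membrane genes had narrower intervals than Col1a1, Col1a2 and Col3a1. The widest of the class were those of Col18a1 (-0.36 to 0.48) and Nid2 (-0.24 to 0.54). Of the 14, 10 were lower and 4 higher, with a median of -0.08 and no unadjusted p under 0.05. Col4a1 was at 5.42, 5.77 and 6.16 (lowest, median, highest) in control mice and at 4.93, 5.77 and 6.04 in thymol mice. The medians were level, and the log2 fold change was -0.13 (95% interval -0.36 to 0.09). Lamb2 had the narrowest interval of all members, -0.08 to 0.16 around 0.04. The widest differences of the class were those of the laminin chains Lama4 (-0.17) and Lama5 (-0.16) and of Nid2 (0.15), each with an interval that spans 0. For Lamb1, 13 of 14 treated mice were under the control median of 4.77, while the means differed by -0.15 (SE 0.11, limma, unadjusted p = 0.192).

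**Figure D4:**
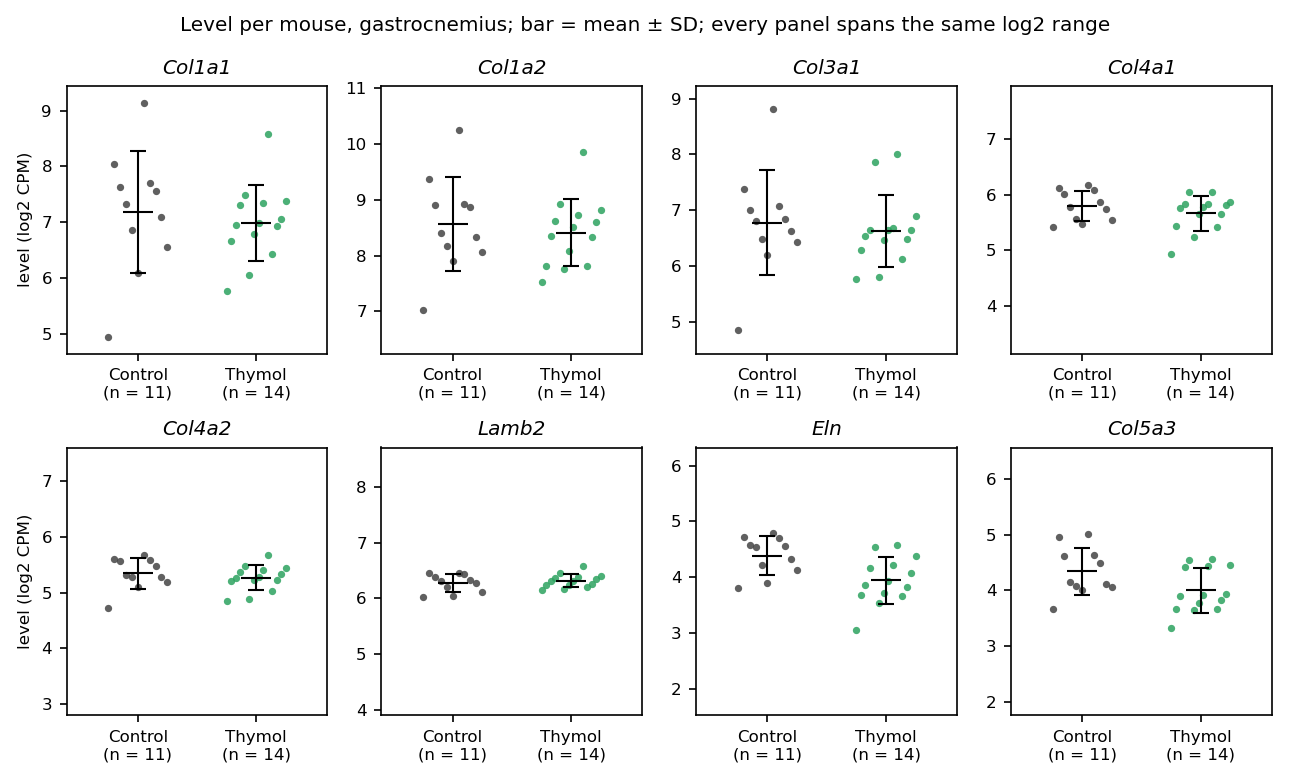
Level in each mouse (log2 CPM, vertical axis) of 8 matrix genes in control (n = 11) and thymol mice (n = 14), with bars for the mean and SD and the same span in every panel. Control 18 and Control 19 are the top and bottom points of the type I and III collagens, the type IV chains and Lamb2 span less, and for Eln 12 of 14 thymol mice lie under the control median, 5 of them below every control mouse.

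Among the other classes, Mgp, the matrix Gla protein that holds back calcification, had the largest positive difference, 0.18 (SE 0.16, unadjusted p = 0.257 in limma), and 10 of 14 thymol mice lay above the control median. Bgn, which encodes biglycan, had 0.15, with 11 of 14 above. Tnxb, which encodes tenascin-X, had -0.25 (SE 0.20, limma, unadjusted p = 0.238), and 11 of 14 lay below. All 4 genes of elastic fibres and adhesive glycoproteins were lower, with a median of -0.17, and 3 of 4 without Control 18. Collagen VI, the small proteoglycans, the matricellular genes and the remodelling genes had medians of -0.0042, -0.03, -0.04 and -0.07.

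Ratios within a library, which do not depend on its scaling, did not pass a two-sided permutation test either. The 6 ratios tested were those of Col1a1 to Col3a1, Col1a2 and Col4a1, of Col4a1 to Col4a2 and Lama2, and of Mmp2 to Timp2. Their log2 differences, thymol minus control, lay between -0.07 and -0.02, and every adjusted permutation p was 0.883. For Mmp2 to Timp2, protease over inhibitor, the means were -3.24 ± 0.39 (SD, n = 11) and -3.27 ± 0.29 (SD, n = 14). The SE of the difference in the Col1a1 to Col4a1 ratio was 0.38 log2 units, the widest of the 6.

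**Figure D5:**
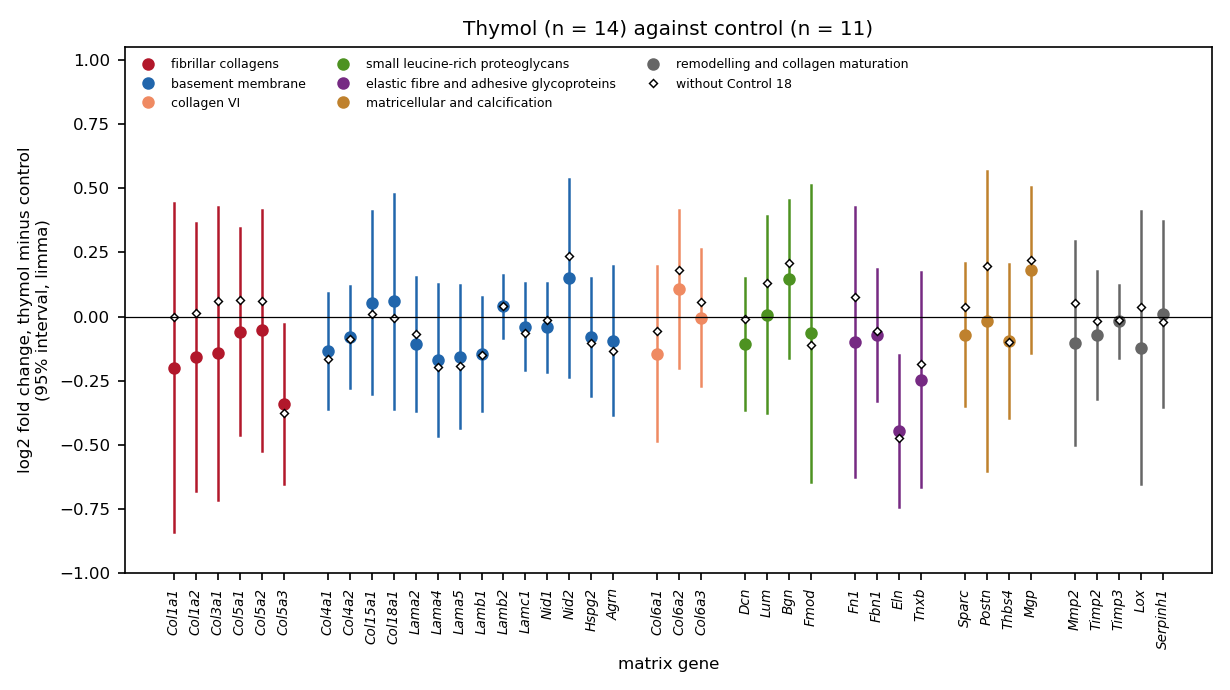
Log2 fold change of thymol (n = 14) against control (n = 11) for the 40 matrix genes by class, with 95% intervals from limma, and open diamonds for the value without Control 18. Only Eln (-0.45) and Col5a3 (-0.34) have intervals below 0, and 4 of the 5 other fibrillar collagens move above 0 without that mouse.

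Genes that make, sense or cut the matrix were read from 5 further lists in the same fit, and none was called. Of the enzymes of procollagen processing, 17 of 26 were in the table, with 10 lower and 7 higher, and Adamts2 had the smallest p of those lower (-0.33, unadjusted p = 0.153 in limma) and Mia3, which helps procollagen leave the endoplasmic reticulum, of those higher (0.07). Of TGF-beta and CCN signalling, the main fibrogenic pathway, 22 of 33 were in the table, with 12 lower and 10 higher. The smallest p values of each direction were those of Ccn2, the connective tissue growth factor (-0.34, unadjusted p = 0.118 in limma), and the ligand Tgfb3 (0.20, unadjusted p = 0.0553 in limma). Of the matrix receptors, 17 of 25 were in the table, and the smallest p values were those of Dag1, the dystroglycan gene, at -0.08 and of the syndecan gene Sdc2 at 0.19. Of the proteases and inhibitors, 19 of 32 were in the table, and Mmp14, the membrane protease that activates pro-MMP2 and cuts fibrillar collagen, was at 4.43 ± 0.56 (SD, n = 11) and 3.91 ± 0.38 (SD, n = 14). Its log2 fold change was -0.52 (SE 0.17, limma, unadjusted p = 0.00543, adjusted p = 0.9999), and Mmp15 had the smallest p of those higher, at 0.12. Of other matrix genes, 35 of 67 were in the table, with the smallest p values for Vwa1 at -0.16 and Col8a1 at 0.28.

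The co-variation was set against depth and library number for Col1a1, Col3a1, Col4a1 and Lama2. None of the 8 relations passed (adjusted permutation p of 0.146 or more). With depth, Col4a1 came closest, with r = 0.36 and rho = 0.50 (permutation p = 0.0732 for r and 0.0115 for rho before adjustment). Its r was 0.49 without the 2 libraries farthest out in depth. Col1a1 had r = 0.19 with depth (rho = 0.26). With library number, r was 0.40 for Lama2 (rho = 0.38), 0.38 for Col3a1 (rho = 0.23) and 0.37 for Col1a1 (rho = 0.30). Their permutation p values for r before adjustment were 0.0502, 0.0604 and 0.0714, below that of Col4a1 with depth. Without the 2 libraries farthest out in number, these r were 0.36, 0.25 and 0.24. The part of library order in the co-variation was not tested.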

How the data were processed

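Gastrocnemius muscle of 25 mice was measured by QuantSeq 3′ sequencing, with 1 library per mouse. Per the methods and the submitters' processing notes, the authors used STAR 2.5.3 for mapping to GRCm38 and HTSeq 0.6.1 for gene counts, and kept genes with at least 30 reads in at least 6 samples. The deposited values are log2 CPM with TMM-scaled libraries and a small prior count, for 8829 symbols. Whole reads were recovered from them for 100% of values (tolerance 0.05 read), which gave the depth. No molecular identifiers are stated, so counting errors cover counting only. The strand setting is not given in the sources used here, so the 16 members with an overlapping gene on the other strand are uncertain (Col5a1, Col5a3, Col4a1, Col4a2, Col15a1, Col18a1, Lama2, Lamc1, Nid1, Nid2, Fn1, Fbn1, Eln, Tnxb, Timp3 and Lox).

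Groups and mouse numbers were taken from the sample titles. Levels were tested with limma 3.58.1 (R 4.3.3, moderation with trend, treatment as the only term, two-sided) on the deposited values, with Benjamini-Hochberg adjustment over all 8829 genes and a threshold of 0.05, in place of the authors' count model. Spread was tested in the same way on absolute deviations from the group median. Correlations and ratios used 100000 permutations (numpy 2.4.6, scipy 1.17.1). The scripts were tested on simulated data. Alternatives were quantile normalization, median centring, a filter to the 75% of genes with the highest mean, voom on recovered reads, 2 other moderations, library number as covariate, a block for the first label number, and each mouse left out. Analyses without outlying libraries, of most similar genes under other scalings and without each mouse and of context lists were added after the data were seen.

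The members, classes, pairs and lists were chosen with earlier results of these data known. Every member is covered. Of each context list the gene with the smallest p in each direction is named, and the 5 genes outside the list with the highest r with Col1a1 and with Col4a1, of which 1 is not reported here. Sequences were matched by symbol: 28 of 40 members had a RefSeq promoter window, and all 40 a 3′ untranslated region in GENCODE M21, of which 1 coding transcript per gene was read.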

Additional observations from a re-analysis of the deposited data

How the results depend on the processing

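No matrix gene passed the adjusted threshold for level under the 8 other settings, or for spread under the 5 of them that were run for it, or with any of the 25 mice left out. Members with an unadjusted p under 0.05 numbered 2 to 3 under the 8 other settings and 1 to 2 with each of the 25 mice left out, and the median log2 fold change of the 40 ran from -0.15 to -0.07 and from -0.12 to -0.01. The fixed pairs past the threshold numbered 17 under 2 scalings, Spearman rho and group means kept, 16 within control mice, 14 within thymol mice, and 16 to 18 with each mouse left out. Genes that varied with Col1a1 numbered 130 after quantile normalization and 133 after median centring, and 0 varied with Col4a1 in both. With each mouse left out they numbered 61 to 294 for Col1a1, lowest without Control 18 and highest without Control 19, and 0 for Col4a1. Without both mice they were 100 and 2.

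The first number in the titles of 16 mice is found in the other group too, and its meaning is not given. Mice that share it across groups did not deviate together over all genes (mean r -0.0022 over 9 pairs, from -0.18 to 0.10). A mean over 9 pairs cannot show that the number has no effect on single genes. With the replicate block the members with an unadjusted p under 0.05 were 3 (Col5a3, Col4a1 and Eln), 33 log2 fold changes were below 0, and the sign changed for Col15a1 (-0.041), Col18a1 (-0.27), Hspg2 (0.052), Col6a2 (-0.10), Lum (-0.22), Fmod (0.30), Thbs4 (0.15) and Serpinh1 (-0.26). With voom it changed for Col5a1 (0.0075), Col6a3 (0.011) and Postn (0.0022), and with library number as covariate for Lum (-0.00039). The cause was not tested.

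Leaving out 1 mouse changed the sign for 16 members. Their log2 fold changes ran from -0.31 to 0.012 for Col1a2, -0.34 to 0.060 for Col3a1, -0.17 to 0.063 for Col5a1, -0.23 to 0.064 for Col5a2, -0.040 to 0.12 for Col15a1, -0.0043 to 0.18 for Col18a1, -0.075 to 0.055 for Col6a3, -0.070 to 0.13 for Lum, -0.19 to 0.054 for Fmod, -0.21 to 0.076 for Fn1, -0.13 to 0.036 for Sparc, -0.16 to 0.20 for Postn, -0.17 to 0.052 for Mmp2, -0.048 to 0.013 for Timp3, -0.23 to 0.039 for Lox and -0.10 to 0.13 for Serpinh1. In all, 21 of the 40 members kept their sign under every setting. With 1 tissue sample per mouse, technical and biological spread cannot be told apart.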

Other observations

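The mean deviation of each class from its group mean places single mice. Control 18 was 1.28 log2 units above its group over the fibrillar collagens and 0.74 above it over collagen VI, while its basement membrane genes deviated by -0.10. Control 19 deviated by -1.48 over the fibrillar collagens, by -0.89 over collagen VI and by -0.18 over the basement membrane. Thymol 21 deviated by 1.04 and 0.22 over fibrillar and basement membrane genes, Thymol 9 by -0.74 and -0.22, and Thymol 3 by -0.72 and -0.14.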
